A study of Mus musculus with 9 samples.

Results

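The adaptors described here are the 6 genes Dok1, Dok2, Sla, Sla2, Lax1 and Sit1, taken by their symbols from a table of 24060 genes measured in unstimulated CD8 T cells of 3 clones. All 6 were in the table and all passed the filter on low values, a TPM over 1 in at least 1 sample, which kept 12115 genes. TPM gives a gene's share of all transcripts in a sample after division by transcript length, so that levels of different genes can be set side by side.

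These genes encode adaptors, proteins without an enzyme domain that bring other proteins together, and each is known to dampen signals from the antigen receptor. Dok1 and Dok2 are phosphorylated after receptor engagement and recruit the Ras GTPase-activating protein Rasa1 and the lipid phosphatase Inpp5d, which limits Ras and PI3K signalling. Sla and Sla2, the Src-like adaptors, bind the receptor complex and the ubiquitin ligase Cbl and so promote removal of the receptor from the surface. Lax1 and Sit1 are transmembrane adaptors related in design to Lat, and mice without either have lymphocytes that respond more strongly.

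Rop7-I, Rop7-II and Rop7-III are lines of mice made by transfer of the nucleus of a mature CD8 T cell, and all bear a receptor for the same Rop7 peptide of Toxoplasma gondii on the class I molecule H-2Ld. The RNA came from cells homozygous for the rearranged receptor chains, in mice backcrossed onto BALB/c, and the age of the mice is not given in the sources used here. Before sorting, spleen cells of every clone spent a night in medium with 10 ng per ml of IL-2 and no antigen. CD3+ CD8+ cells positive for the H-2Ld-Rop7 tetramer were then collected at a purity of 90 to 95%. Each clone gave 3 biological replicates, 9 samples in all, each sequenced from 200 ng of RNA. Each clone is 1 mouse line from 1 donor nucleus, so that its receptor and any other inherited property of the line cannot be told apart. It is not stated whether the replicates are separate mice, and p-values set differences between clones against a spread estimated from these samples.

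Between 11056 and 11494 genes were over 1 TPM in a sample, and the depth of each sample is unknown here because TPM keeps none and the study's methods give only a typical number of reads. All 6 markers of CD8 T cells were over 1 TPM in every sample and summed to between 5319.71 and 5860.85 TPM. Some RNA of other cells was present. The 14 markers of B cells summed to 2585.51 TPM in Rop7-II replicate 1 and to 156.82 to 1109.6 TPM elsewhere, and all 14 were highest in that sample. All 12 myeloid markers in the table were also highest there, with a sum of 671.56 TPM against 38.08 to 250.58 TPM elsewhere. None of the defining markers of B or myeloid cells was at 0 in any sample. Erythroid markers summed to 2496.03 TPM in Rop7-I replicate 2 and to 28.09 to 493.91 TPM elsewhere, with 8 of 9 markers highest there. CD4 T-cell markers summed to 39.26 TPM in Rop7-II replicate 1 and to 18.67 to 22.99 TPM elsewhere, with 4 of 5 highest there. NK-cell markers summed to 48.14 TPM in that sample and to 3.27 to 19.47 TPM elsewhere, with 2 of 7 highest there.

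All 6 adaptors were transcribed in all 9 samples, but they differed in level and in how far the clones varied. Sla2 was the most abundant over all samples, with a mean of 169 TPM, at percentile 92.0 of the tested genes. The means over all samples were 56.8 TPM for Lax1, 53.4 for Sla, 41.3 for Sit1 and 25.8 for Dok1, the last at percentile 49.0. Dok2 averaged 103 TPM, but this mean rests on Rop7-II, where Dok2 (192 TPM) stood above Sla2 (169 TPM). In Rop7-I, Dok2 (52.9 TPM) was below Lax1 (61.4) and Sla (54.2), and in Rop7-III Dok2 (64.0) was below Sla (66.6). Clone means of Dok2 spanned 3.64-fold from lowest to highest, those of Sla 1.69-fold and those of Sit1 1.35-fold. The spans were 1.13-fold for Lax1, 1.03-fold for Sla2 and 1.01-fold for Dok1.

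**Figure D1:**
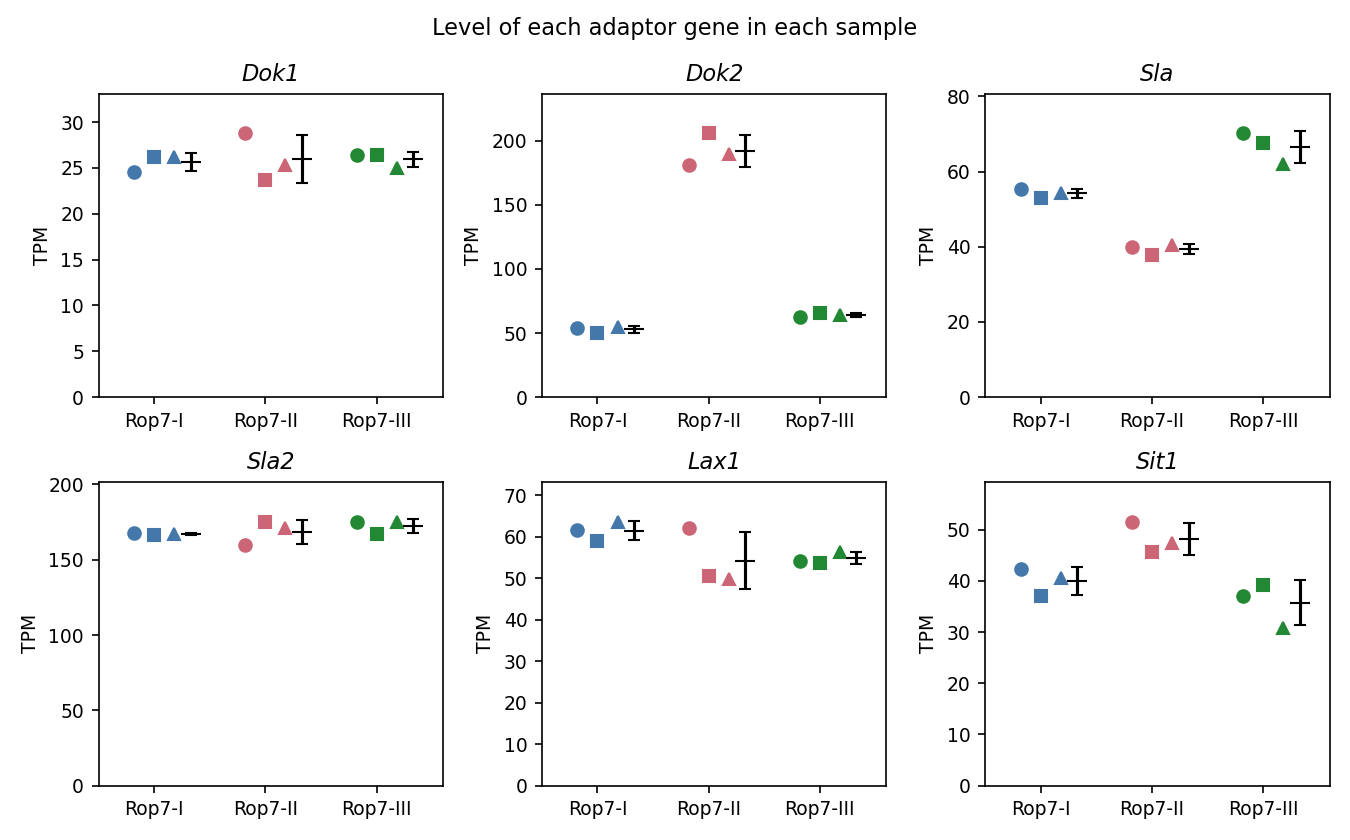
Level in TPM of each of the 6 adaptors in each of the 9 samples, 1 panel per gene with its own axis from 0, with points for samples and lines for the mean and SD of each clone (n = 3). Dok2 stands at 181 to 206 TPM in Rop7-II against 49.8 to 65.3 TPM in the other clones, Sla falls into 3 separate bands, and Dok1 and Sla2 lie at the same height in every clone.

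Clones were compared with limma on log2(TPM + 1), two-sided, with p adjusted over all tested genes within each pair and a threshold of 0.01. Because the adaptors were chosen with earlier results of these data known, among them that of Dok2, the counts below only describe the list. Between Rop7-III and Rop7-II, 3 of the 6 adaptors passed (Dok2, Sla and Sit1), against 12.3% of all tested genes. Between Rop7-III and Rop7-I, 1 passed (Sla), against 4.85%. Between Rop7-I and Rop7-II, 2 passed (Dok2 and Sla), against 7.53%. In an F test over the 3 clones, Dok2 and Sla passed, against 14.1% of all tested genes. Over the 3 pairs, 3 adaptors passed at least once, against 16.6%. With a minimum difference of 2-fold added, only Dok2 was called in any pair, against 2.48% of all tested genes. That call was made between Rop7-III and Rop7-II, where 1.70% of genes were called, and between Rop7-I and Rop7-II, where 0.949% were. Between Rop7-III and Rop7-I, limma called 0 adaptors at 2-fold, against 1.06% of genes, while 2 adaptors and 28% of all tested genes had an unadjusted p under 0.05.

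In each pair, the samples of the 2 clones did not overlap for 3 of the 6 adaptors. Over all tested genes this held for 40.7% between Rop7-III and Rop7-II, 38.2% between Rop7-III and Rop7-I and 35.0% between Rop7-I and Rop7-II. The differences lay in both directions, and their median log2 difference was 0.01 between Rop7-III and Rop7-II, where that of all tested genes was -0.02. Without regard to sign, the medians were 0.23 for the adaptors and 0.13 for all tested genes. The corresponding medians were 0.16 and 0.10 between Rop7-III and Rop7-I, and 0.22 and 0.12 between Rop7-I and Rop7-II. The pairs share samples and are not separate evidence.

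**Figure D2:**
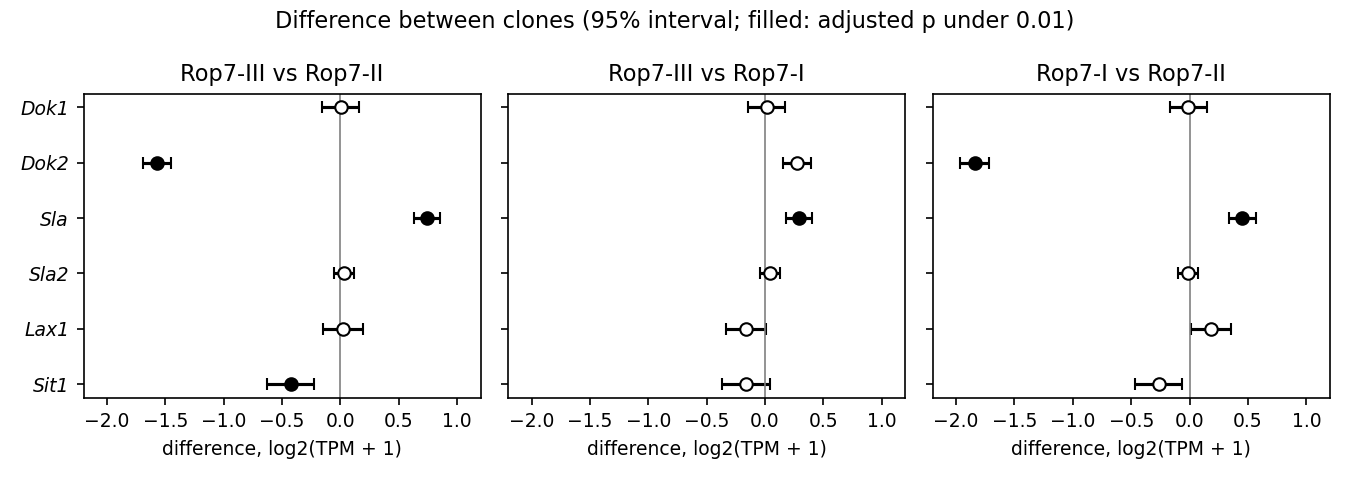
Log2 difference of each adaptor in each of the 3 pairs of clones, on the log2(TPM + 1) scale, with bars for the 95% interval from limma and filled points for an adjusted p under 0.01. Dok2 lies at -1.57 and -1.84 in the pairs with Rop7-II, Sla lies above 0 in all 3 pairs, and the intervals of Dok1 and Sla2 hold 0 in every pair.

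Dok2 set Rop7-II apart from the other clones. Its TPM was 181, 206 and 190 in replicates 1 to 3 of Rop7-II. In Rop7-I it was 54.1, 49.8 and 54.8, and in Rop7-III 62.4, 65.3 and 64.3. All 3 Rop7-II samples were high, and the clones did not overlap in any pair. The means were 52.9 ± 2.75 TPM (SD, n = 3) in Rop7-I, 192 ± 12.5 in Rop7-II and 64.0 ± 1.44 in Rop7-III. Dok2 in Rop7-III was 0.337 times as high as in Rop7-II (log2 difference -1.57, SE 0.05, limma adjusted p = 4.22e-07). In Rop7-I it was 0.279 times as high as in Rop7-II (log2 difference -1.84, SE 0.05, limma adjusted p = 1.22e-07). By p-value these differences ranked 5 and 4 among the 12115 genes. Between Rop7-III and Rop7-I the difference was 0.27 (SE 0.05), with an adjusted p of 0.0114 by limma, which did not pass. In bulk samples, a lower share of cells with a transcript and less transcript per cell cannot be told apart.

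The Rop7-II sample rich in B-cell markers had the lowest Dok2 of its clone. Without it, the log2 difference was -1.61 between Rop7-III and Rop7-II and -1.88 between Rop7-I and Rop7-II. The Dok2 difference between Rop7-III and Rop7-I uses no Rop7-II sample and stayed at 0.27, so that only its test changed. Its limma adjusted p was 0.00718 without that sample and 0.00650 without Rop7-II replicate 2. Without any other single sample it did not pass (0.0183 to 0.0487).

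Dok1, which acts beside Dok2 in T cells, had nearly the same mean in every clone, 25.7 ± 0.961 TPM in Rop7-I, 25.9 ± 2.61 in Rop7-II and 25.9 ± 0.855 in Rop7-III (SD, n = 3 each). Its TPM was 24.6, 26.2 and 26.2 in Rop7-I, 28.8, 23.7 and 25.4 in Rop7-II, and 26.4, 26.4 and 24.9 in Rop7-III. The clones overlapped in every pair. The log2 difference was 0.00 between Rop7-III and Rop7-II (95% interval -0.15 to 0.16), 0.01 between Rop7-III and Rop7-I (-0.14 to 0.17) and -0.01 between Rop7-I and Rop7-II (-0.17 to 0.15). Dok2 was thus 6.30 to 8.69 times the TPM of Dok1 in the Rop7-II samples, 1.90 to 2.20 times in Rop7-I and 2.36 to 2.58 times in Rop7-III.

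Dok3, the Dok family member best known from B cells and myeloid cells, did not pass in any pair. Its TPM was 18.5, 35.1 and 30.2 in Rop7-I, 69.8, 11.7 and 13.98 in Rop7-II, and 11.6, 17.3 and 14.4 in Rop7-III. The highest value was in Rop7-II replicate 1, the sample with the most B-cell and myeloid markers. The log2 difference between Rop7-III and Rop7-II was -0.64 (SE 0.56, limma adjusted p = 0.429), and without that sample it was 0.14. Dok4, Dok5, Dok6 and Dok7 did not exceed 1 TPM in any sample and were not tested.

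**Figure D3:**
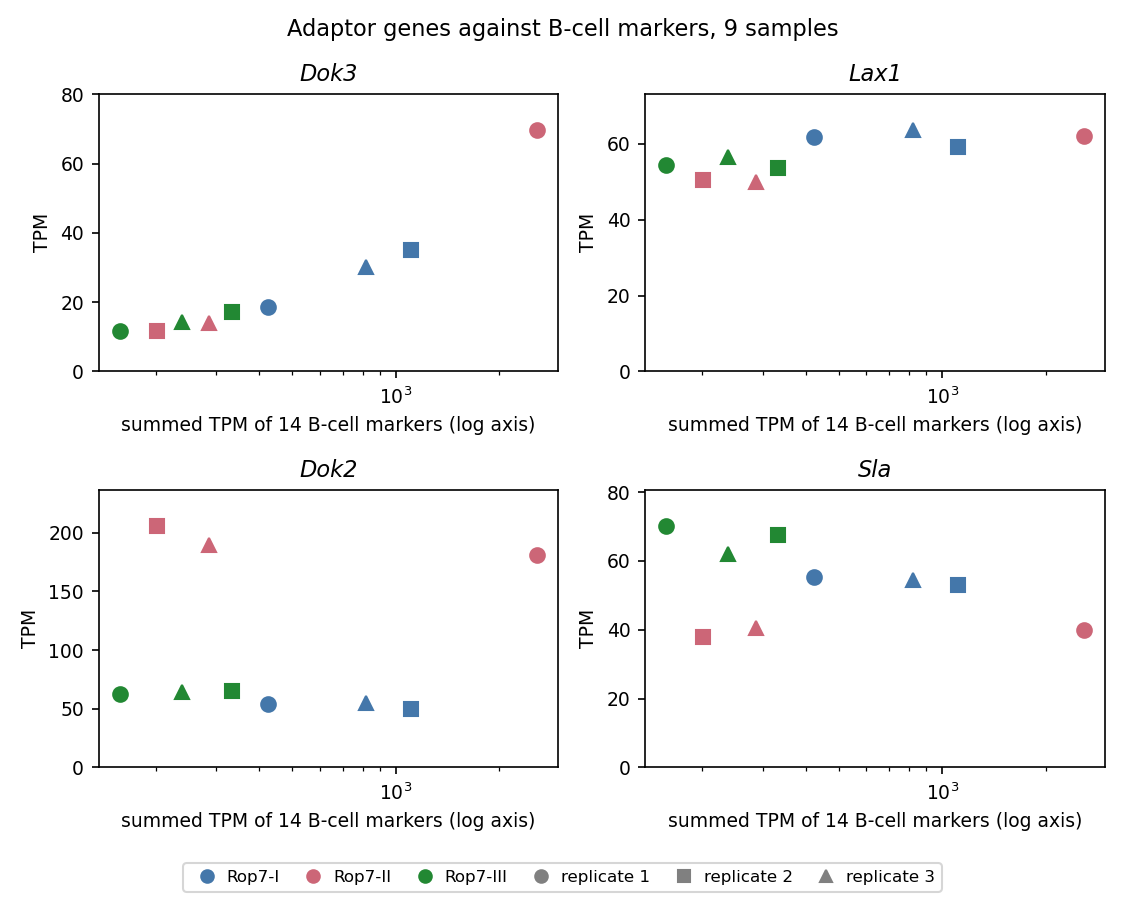
Summed TPM of the 14 B-cell markers on a log horizontal axis against the TPM of Dok3, Lax1, Dok2 and Sla on vertical axes from 0, with 1 point per sample, a colour per clone and a marker shape per replicate. Rop7-II replicate 1, at 2585.51 TPM of markers, has the highest Dok3 (69.8 TPM) of all samples and the lowest Dok2 (181 TPM) of its clone.

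Sla was graded over the 3 clones, highest in Rop7-III and lowest in Rop7-II. Its TPM was 70.2, 67.5 and 62.0 in the Rop7-III samples, 55.3, 53.0 and 54.4 in those of Rop7-I, and 40.0, 37.8 and 40.4 in those of Rop7-II. No 2 clones overlapped. The means of Rop7-III, Rop7-I and Rop7-II were 66.6 ± 4.19, 54.2 ± 1.16 and 39.4 ± 1.41 TPM (SD, n = 3 each). Sla was 1.67 times as high in Rop7-III as in Rop7-II (log2 difference 0.74, SE 0.05, limma adjusted p = 2.03e-05). In Rop7-I it was 1.37 times as high as in Rop7-II (0.45, SE 0.05, limma adjusted p = 4.97e-04). Between Rop7-III and Rop7-I it was 1.22 times as high (0.29, SE 0.05, limma adjusted p = 0.00667). Leaving out any 1 of 6 samples, among them each Rop7-I sample, ended the last call, and the adjusted p was then between 0.0104 and 0.0323.

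The order of the clones for Sla was that of Cd5, a surface receptor whose level is known to follow the strength of self-recognition and which also restrains signalling. Cd5 averaged 178 ± 3.204 TPM in Rop7-III cells, with 67.6 ± 7.93 in Rop7-I cells and 41.4 ± 10.2 in Rop7-II cells (SD, n = 3 each). Dok2 did not follow this order, since its middle clone was Rop7-III. The means of Sit1 stood in the reverse order, Rop7-II, Rop7-I and Rop7-III from high to low, though Rop7-I and Rop7-III overlapped. Dok1, Sla2 and Lax1 had neither order. How many of all tested genes share the order of Cd5 was not counted.

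Sla2, the other Src-like adaptor, was the most abundant of the 6 in Rop7-I and Rop7-III and varied little between clones, with means of 167 ± 0.602 TPM in Rop7-I, 169 ± 8.07 in Rop7-II and 173 ± 4.54 in Rop7-III (SD, n = 3 each). Its TPM was 168, 167 and 167 in Rop7-I, 160, 175 and 171 in Rop7-II, and 175, 167 and 175 in Rop7-III, with overlap in every pair. The log2 difference was 0.03 between Rop7-III and Rop7-II (95% interval -0.05 to 0.12), 0.04 between Rop7-III and Rop7-I (-0.04 to 0.13) and -0.01 between Rop7-I and Rop7-II (-0.10 to 0.07). Sla2 was therefore 2.48 to 2.82 times the TPM of Sla in Rop7-III samples, 3.03 to 3.14 times in Rop7-I samples and 3.99 to 4.64 times in Rop7-II samples.

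Sit1 was highest in Rop7-II. Its TPM was 51.6, 45.6 and 47.4 there, 42.4, 37.0 and 40.6 in Rop7-I, and 37.1, 39.3 and 30.9 in Rop7-III. The Rop7-II samples stood above all others, while Rop7-I and Rop7-III overlapped. The means were 48.2 ± 3.09 TPM in Rop7-II and 35.7 ± 4.37 in Rop7-III (SD, n = 3 each), and Sit1 was 0.744 times as high in Rop7-III (log2 difference -0.43, SE 0.09, limma adjusted p = 0.00837). This call was close to the threshold: without Rop7-III replicate 2 the adjusted p was 0.00959, and without any 1 of the other 8 samples it lay between 0.0116 and 0.0261. Without Rop7-II replicate 1, which had the highest Sit1 of its clone, the difference was -0.38. The difference was -0.26 (95% interval -0.46 to -0.06, limma adjusted p = 0.0733) between Rop7-I and Rop7-II and -0.16 (-0.36 to 0.04, adjusted p = 0.276) between Rop7-III and Rop7-I.

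Lax1 did not pass in any pair. Its TPM was 61.7, 59.0 and 63.7 in Rop7-I, 62.1, 50.5 and 49.9 in Rop7-II, and 54.3, 53.7 and 56.4 in Rop7-III. All Rop7-I samples lay above all Rop7-III samples, and Rop7-II replicate 1 stood apart from the other two of its clone. The log2 difference was 0.02 between Rop7-III and Rop7-II (95% interval -0.15 to 0.19), -0.16 between Rop7-III and Rop7-I (-0.33 to 0.01) and 0.18 between Rop7-I and Rop7-II (0.01 to 0.36, limma adjusted p = 0.129). Without Rop7-II replicate 1, Lax1 was higher in Rop7-I than in Rop7-II by 0.29, with an adjusted p of 0.00408. The part of other cells' RNA in the Lax1 of that sample was not tested.

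Summed over the 6 adaptors, the level was 523.54 to 538.85 TPM in the Rop7-II samples, 391.57 to 407.03 in Rop7-I and 413.57 to 425.79 in Rop7-III. Without Dok2, the sums were 332.9 to 342.19 TPM in Rop7-II, 341.82 to 352.2 in Rop7-I and 349.29 to 363.35 in Rop7-III. The higher total in Rop7-II was thus carried by Dok2.

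Of 35 listed partner genes, a term that here also covers other Dok genes and other transmembrane adaptors such as Lat, 31 were tested. Between Rop7-III and Rop7-II, 4 passed, 2 higher and 2 lower in Rop7-III, a share near the 12.3% of all tested genes. Between Rop7-I and Rop7-II, 4 passed, 2 higher and 2 lower in Rop7-I, against 7.53% of all tested genes. Between Rop7-III and Rop7-I, limma called 0 of the 31, against 4.85%, and 7 had an unadjusted p under 0.05, against 28% of all tested genes. No listed gene reached 2-fold at the threshold in any pair.

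Cblb, a ubiquitin ligase that restrains T-cell activation, was lower in Rop7-II, at 58.7 ± 4.88 TPM against 78.7 ± 3.02 in Rop7-I and 81.4 ± 2.70 in Rop7-III (SD, n = 3 each). The log2 difference between Rop7-III and Rop7-II was 0.47 (SE 0.06, limma adjusted p = 5.84e-04). Cbl, the ligase that Sla and Sla2 bind, did not pass between Rop7-III and Rop7-II, at 160 ± 13.5 TPM in Rop7-II and 138 ± 8.42 in Rop7-III (limma adjusted p = 0.0395). Cd247, the zeta chain of the receptor complex, was at 632 to 651 TPM in the clone means and did not pass in any pair.

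Pik3r1, the regulatory subunit of PI3K that binds Lax1, was also lower in Rop7-II, at 78.0 ± 5.09 TPM against 99.1 ± 1.52 in Rop7-I and 103 ± 0.978 in Rop7-III. The log2 difference between Rop7-III and Rop7-II was 0.39 (SE 0.05, limma adjusted p = 3.67e-04).

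Lat, the activating adaptor of this design, was higher in Rop7-II, at 1099 ± 29.7 TPM against 964 ± 33.3 in Rop7-I and 959 ± 15.5 in Rop7-III. Its log2 difference between Rop7-III and Rop7-II was -0.20 (SE 0.03, limma adjusted p = 0.00294). Lck, the first kinase of the receptor pathway, fell below Rop7-II in Rop7-I (992 ± 35.6 against 1128 ± 18.7 TPM, log2 difference -0.19, limma adjusted p = 0.00685). Csk, the kinase that inhibits Lck, fell below Rop7-II in Rop7-III (276 ± 3.51 against 306 ± 8.96 TPM, log2 difference -0.15, limma adjusted p = 0.00741). The calls of these 3 genes were close to the threshold. Leaving out any 1 of the 9 samples ended that of Csk (adjusted p 0.0102 to 0.0326), any but Rop7-III replicate 3 ended that of Lck (0.0101 to 0.0276), and Rop7-II replicate 3 or any 1 Rop7-III sample ended that of Lat (0.0109 to 0.0141).

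Rasa1 and Inpp5d, genes of proteins that the Dok adaptors recruit, were close in level between clones. Rasa1 was at 71.6 ± 1.58 TPM in Rop7-I, 72.7 ± 2.61 in Rop7-II and 74.3 ± 2.19 in Rop7-III. Inpp5d was at 63.3 ± 3.59, 61.9 ± 4.58 and 62.3 ± 2.98 TPM in the same order. Neither passed in any pair. Of the 9 listed Dok effectors, 1 (Csk) passed between Rop7-III and Rop7-II, near the share of all tested genes in that pair (12.3%).

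**Figure D4:**
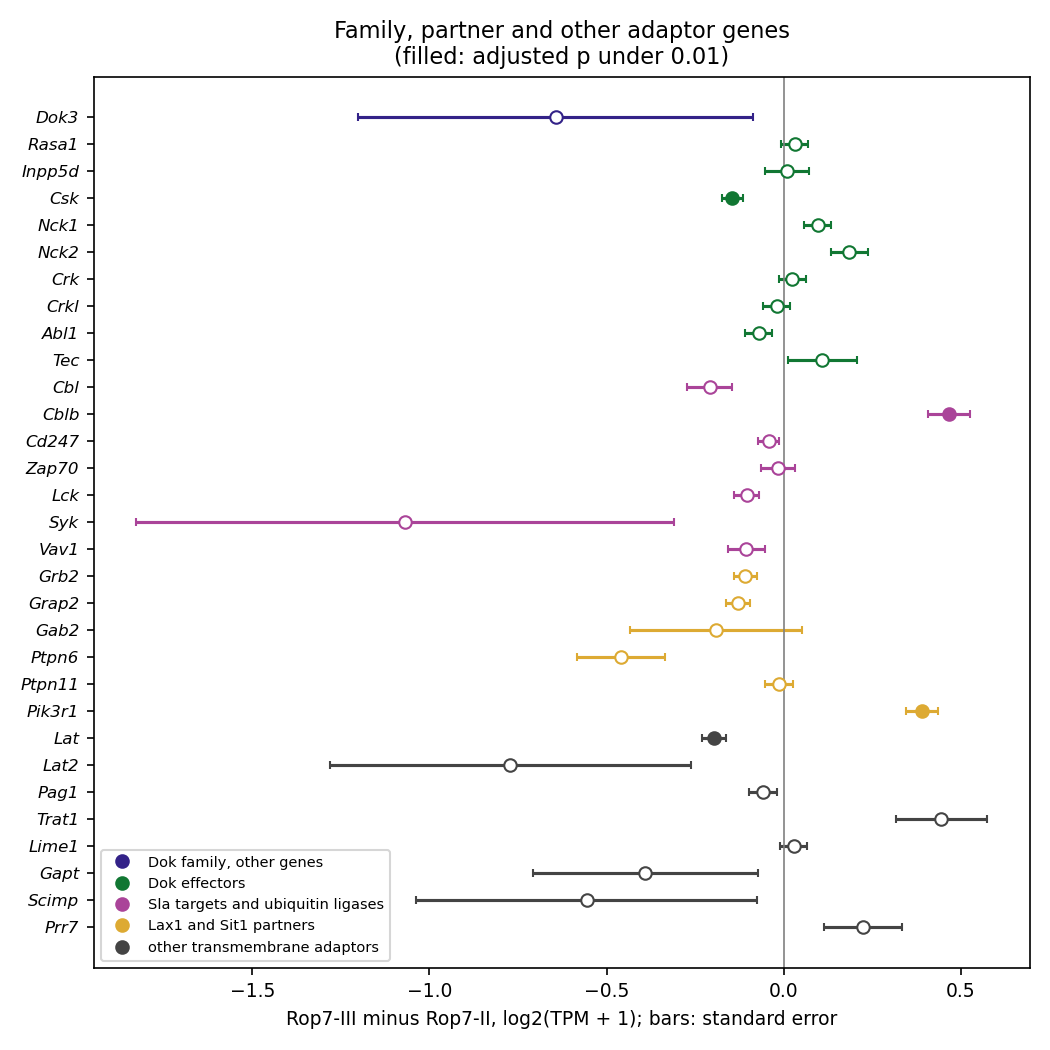
Difference of Rop7-III minus Rop7-II on the log2(TPM + 1) scale for 31 tested partner, Dok family and other adaptor genes. Colours mark the list, bars the standard error and filled points a limma adjusted p under 0.01. Cblb (0.47) and Pik3r1 (0.39) are filled above 0, Csk (-0.15) and Lat (-0.20) are filled below 0, and Dok3 (-0.64) is an open point with a wide bar.

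The genes most alike to Dok2 over the 9 samples, by Pearson's r of log2(TPM + 1), were Cmtm7 (r = 0.993), Caml (0.993) and Pdk1 (0.991). The points share their clone and library, so these values mostly restate a high level in Rop7-II. Pdk1, for example, averaged 239 TPM in Rop7-II, 38.0 in Rop7-I and 41.0 in Rop7-III. For Sla the most alike were Arhgef3 (r = 0.987), Tmem18 (0.985) and Gcfc2 (0.984). Arhgef3 followed the order of Sla, with averages of 177, 128 and 79.3 TPM for Rop7-III, Rop7-I and Rop7-II.

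On GRCm38, Dok2 lies on the plus strand at chr14:70766036-70778495, on the chromosome of the Tcra locus and 16.54 Mb from it. Dok1 lies on the minus strand at chr6:83030934-83033471, on the chromosome of the Tcrb locus and 41.47 Mb from it. The other 4 adaptors lie on the minus strand of chromosomes without either locus, Sla at chr15:66780819-66831829, Sla2 at chr2:156872457-156887192, Lax1 at chr1:133679091-133690108 and Sit1 at chr4:43482081-43483734. Within 1 Mb of Dok2, 3 of 18 tested genes passed in at least 1 pair, and the counts were 3 of 6 around Sla, 8 of 26 around Dok1, 4 of 28 around Sla2, 4 of 15 around Lax1 and 7 of 25 around Sit1. Over all tested genes the share was 16.6%, which the count around Dok2 matched. The shares around Sla, Dok1, Lax1 and Sit1 were above it, and that around Sla2 was below it. Whether these counts differ from the share of all genes was not tested.

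There were 5 neighbours that also reached 2-fold. These were 2 of 18 tested genes around Dok2, 1 of 6 around Sla, 1 of 26 around Dok1 and 1 of 25 around Sit1. Around Sla2 and Lax1 the count was 0. The share of all tested genes called at 2-fold in any pair was 2.48%. The 4 beside Dok2, Sla and Sit1 did not have the clone order of the adaptor beside them. Near Dok2, Ppp3cc averaged 95.2 TPM in Rop7-I, 53.5 in Rop7-II and 44.3 in Rop7-III, and Hr averaged 1.17, 0.463 and 1.96 TPM. Near Sla, Ndrg1 averaged 15.6, 22.6 and 36.7 TPM. Near Sit1, Reck averaged 6.42, 4.39 and 12.6 TPM. Near Dok1, whose means hardly differed between clones, Sema4f averaged 31.6, 74.0 and 28.5 TPM.

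The libraries did not keep the strand, so that reads of overlapping genes on opposite strands could be shared. Sla lies wholly inside Tg, the thyroglobulin gene, which was at 0.02 to 0.09 TPM. Dok2 overlaps Xpo7 by 593 bases, and Xpo7 was at 20.6 to 22.8 TPM in all samples. Sla2 overlaps the gene listed as 1110008F13Rik by 1107 bases, and that gene was at 66.8 to 96.8 TPM.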

How the data were processed

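The authors quantified single-end, unstranded reads over RefSeq genes (mouse, mm10) by RSEM 1.2.11, deposited TPM for 24060 genes in 9 samples, and tested counts with DESeq2 1.8.1. Each sample sums to between 1000000 and 1000001 TPM. TPM keeps no depth, so no counting interval was computed, and the count test was replaced by limma 3.58.1 (R 4.3.3) on log2(TPM + 1), with trend, over all 9 samples. A fold change on this scale understates that of low genes. Only genes exceeding 1 TPM somewhere were tested. P-values were adjusted by Benjamini-Hochberg over 12115 genes within each pair, with a threshold of 0.01. Clones were taken from the sample labels. Partner lists and marker lists were written from textbook knowledge; partners that passed, Dok3, the 3 genes most alike to an adaptor past the F test, and neighbours within 1 Mb at 2-fold were named. Cd5 and the genes that overlap an adaptor were also named by the plan. Cbl, Cd247, Rasa1 and Inpp5d were named outside it, after their values were seen. The adaptors and lists were chosen with earlier results of these data known, among them that of Dok2. Positions are from GENCODE M21 on GRCm38, matched for 11998 tested genes. Alternatives were a pseudocount of 0.1, no filter, a minimum of 1 TPM throughout, a common median, quantile normalization, no trend, a fit of 2 clones, a block by replicate number, leaving out single samples, an adjusted p under 0.05 and a 2-fold minimum. Columns of the table with no matching sample numbered 0.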

Additional observations from a re-analysis of the deposited data

How the results depend on the processing

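Of 19 alternatives, Dok2 against Rop7-II passed in all 19 in both pairs, and Sla in Rop7-III or Rop7-I against Rop7-II in all but the 2-fold minimum. Sit1 between Rop7-III and Rop7-II was lost with no filter (-0.43), quantile normalization (-0.41), no trend (-0.43), a fit of 2 clones (-0.43), the replicate block (-0.43) and the 2-fold minimum (-0.43), and ran from -0.50 to -0.33 over samples left out. Sla between Rop7-III and Rop7-I was lost with no filter (0.29), no trend (0.29), the replicate block (0.29) and the 2-fold minimum (0.29, against 0.74 and 0.45 for its other lost pairs), and ran from 0.25 to 0.34. Dok2 between Rop7-III and Rop7-I was gained with a minimum of 1 TPM throughout (0.27), quantile normalization (0.28), a fit of 2 clones (0.27) and an adjusted p under 0.05 (0.27), and ran from 0.23 to 0.30. Lax1 between Rop7-I and Rop7-II ran from 0.13 to 0.29. Small differences changed sign. Sla2 between Rop7-I and Rop7-II was 0.0072 with quantile normalization and -0.049 to 0.018 over samples left out, and between Rop7-III and Rop7-II it was -0.0048 to 0.062. Dok1 ran from -0.058 to 0.077 between Rop7-III and Rop7-II, -0.016 to 0.041 between Rop7-III and Rop7-I and -0.072 to 0.063 between Rop7-I and Rop7-II, and Lax1 between Rop7-III and Rop7-II from -0.031 to 0.12. Dok3 between Rop7-III and Rop7-II ran from -1.10 to 0.14, the latter without Rop7-II replicate 1.

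Adaptors passing between Rop7-III and Rop7-I numbered 0 with no filter, no trend, the replicate block or the 2-fold minimum, and 2 with a minimum of 1 TPM throughout, quantile normalization, a fit of 2 clones or an adjusted p under 0.05. They ranged from 0 to 2 over samples left out, 2 to 3 between Rop7-III and Rop7-II, and 2 to 3 between Rop7-I and Rop7-II. With the 2-fold minimum 1 adaptor passed in each pair with Rop7-II. All tested genes passing, in the order Rop7-III against Rop7-II, Rop7-III against Rop7-I and Rop7-I against Rop7-II, numbered 206, 128 and 115 with the 2-fold minimum, 3041, 1586 and 2163 at an adjusted p under 0.05, and 811 to 1279, 240 to 786 and 409 to 811 over samples left out. They numbered 839 and 356 in the pairs with Rop7-II in fits of 2 clones, 373 between Rop7-III and Rop7-I with the replicate block, and 600 between Rop7-I and Rop7-II with no trend. Partner genes passing ran from 2 to 5, 0 to 2 and 1 to 5 in that order over samples left out. Between Rop7-III and Rop7-II they numbered 2 with quantile normalization or no trend, 10 at an adjusted p under 0.05 and 0 with the 2-fold minimum. Between Rop7-III and Rop7-I they numbered 2 in a fit of 2 clones and 1 at an adjusted p under 0.05. Between Rop7-I and Rop7-II they numbered 2 with no filter, quantile normalization, no trend or the replicate block, and 0 in a fit of 2 clones or with the 2-fold minimum. Of the partners named, Csk between Rop7-III and Rop7-II was lost in 14 of the 19 alternatives, and Lck between Rop7-I and Rop7-II in 15. In Rop7-III and then Rop7-I against Rop7-II, Lat was lost in 7 and 12, Cblb in 1 and 3, and Pik3r1 in 1 and 2. The cause of these changes was not tested. An adjusted p under 0.05 is a looser threshold on the same fit, and the 2-fold minimum adds a condition to it.

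Samples of different clones with the same replicate number correlated in their deviations from the clone means at r = -0.39 to 0.11 (9 pairs), and those with different numbers at -0.18 to 0.32, so that the numbers were not taken as a pairing.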
